A study of Mus musculus with 8 samples.

Results

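The genes described here are 10 regulators of blood vessel growth and of the response to low oxygen. They were chosen by function and by name: the ligands *Vegfa*, *Vegfb* and *Pgf*, the receptors *Flt1* and *Kdr*, the inhibitor *Serpinf1*, the angiopoietin-like gene *Angptl4*, the hypoxia-inducible factor (HIF) subunits *Hif1a* and *Epas1*, and the oxygen sensor *Egln3*. All 10 were among the 31053 genes counted, and all 10 were among the 12889 genes with enough counts to be tested. RNA of retinal pigment epithelium (RPE) isolated from mice of the C57/Bl6 strain at postnatal day 29 (P29) was sequenced in 8 libraries. Of these, 4 came from untreated *Bbs8*-/- mice and 4 from their untreated wild-type littermates, written *Bbs8*+/+. *Bbs8*, annotated as *Ttc8*, encodes a subunit of the BBSome, a protein complex that moves cargo in cilia. The knockout was not restricted to the RPE, so photoreceptors and all other cells of the eye lacked the gene too. The question addressed was how the transcripts of these genes differed between *Bbs8*-/- and *Bbs8*+/+ RPE.

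The RPE lies between the photoreceptors and the choroid and secretes VEGF-A toward the choroidal capillaries, which depend on it. VEGF-A signals through VEGFR2, the product of *Kdr*, while VEGFR1, the product of *Flt1*, also binds VEGF-B and placental growth factor. The RPE also secretes pigment epithelium-derived factor (PEDF), encoded by *Serpinf1*, which restrains vessel growth. When oxygen is plentiful, prolyl hydroxylases such as the product of *Egln3* mark HIF alpha subunits for destruction, so HIF activity is set largely at the protein level, which transcript counts do not show.

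Libraries were made with the QuantSeq 3′ protocol, which reads 1 fragment near the poly-A end of a transcript, so counts do not grow with transcript length. Levels are given as CPM, counts relative to library size and scaled by TMM, edgeR's trimmed mean normalization, and errors are SD with n = 4 libraries per genotype. A *Bbs8*+/+ library held between 2495094 and 3093428 gene counts and a *Bbs8*-/- library between 2389835 and 2736289. A count of 3, taken as the floor, corresponded to 0.970 to 1.26 CPM and covers counting error only. The genotypes were compared with edgeR's two-sided quasi-likelihood F test, and p-values were adjusted by the Benjamini-Hochberg method over all 12889 genes. A gene is called changed where this adjusted p was below 0.05. *Ttc8* averaged 47.7 ± 10.4 CPM in *Bbs8*+/+ and 4.71 ± 1.98 CPM in *Bbs8*-/- libraries (log2 fold change -3.34, adjusted p = 2.48e-11), in the direction of the labels.

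Several properties of the whole libraries moved with genotype. Reads outside genes made up 17.0% to 18.4% of a *Bbs8*+/+ library and 19.8% to 20.6% of a *Bbs8*-/- library. The TMM factors were 0.955 to 0.980 in *Bbs8*+/+ and 1.019 to 1.046 in *Bbs8*-/- libraries. The summed level of 12 photoreceptor markers was 53629 to 57429 CPM in *Bbs8*+/+ and 22365 to 23148 CPM in *Bbs8*-/- libraries. The sum of 14 lens markers was 3587 to 3863 CPM against 609 to 689 CPM, and that of 6 erythrocyte markers was 5163 to 5729 CPM against 1989 to 2222 CPM. The sum of 10 markers of Müller and reactive glia was 7379 to 7841 CPM against 8909 to 9311 CPM. Its rise was carried mostly by the abundant *Apoe* (means 4117 and 4865 CPM) and *Glul* (1201 and 1712 CPM). With *Rdh10* (1185 and 1321 CPM) and *Car14* (1058 and 1022 CPM) they made up most of the sum. *Gfap*, *Aqp4* and *Kcnj10* had means of at most 5.86 CPM in either genotype. The sum therefore does not show which cell type its rise came from. Of its 10 genes 4 were called higher and 0 lower. The sum of 12 RPE markers was 39308 to 40341 CPM against 47416 to 51145 CPM, carried by the secreted carrier *Ttr*, while 3 of its 12 genes were called lower and 1 higher. Each of these 5 sums differed with an exact permutation p of 0.0286, two-sided, the smallest that 4 libraries against 4 can give. *Rpe65*, which defines the RPE, had at least 9626 counts in every library, whereas the RPE marker *Best1* had 0 to 5. In a bulk sample, fewer cells of a type and less RNA per cell cannot be told apart.

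**Figure D1:**
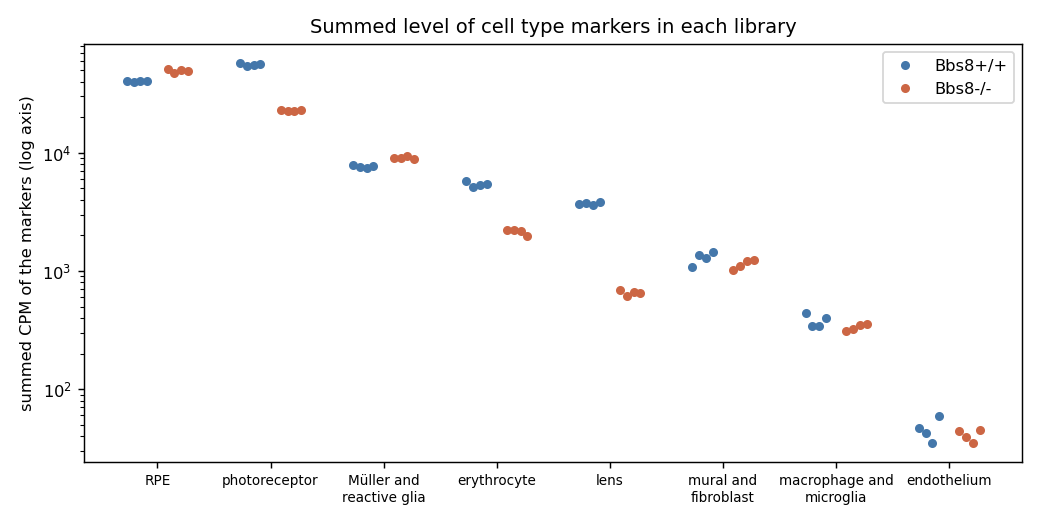
Summed CPM of the markers of 8 cell types in each library on a log axis, with *Bbs8*+/+ in blue and *Bbs8*-/- in orange, 4 points per genotype. Photoreceptor, lens and erythrocyte sums were lower and RPE and glial sums higher in every *Bbs8*-/- library, while the endothelial, mural and macrophage sums overlapped.

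One further property concerned the replicates themselves, and its genes were chosen after their values were seen. The study describes each animal as a replicate, and the labels leave the sex undetermined. All 8 libraries nevertheless held both *Xist*, the transcript of the inactive X chromosome, and transcripts of the Y-linked genes *Ddx3y*, *Eif2s3y*, *Kdm5d* and *Uty*. *Xist* was at 41.3 to 71.2 CPM in *Bbs8*+/+ and 200.01 to 212.65 CPM in *Bbs8*-/- libraries (exact permutation p = 0.0286, two-sided). The Y-linked sum was 128 to 166 CPM against 103 to 133 CPM (exact permutation p = 0.0571, two-sided). Values of both kinds in one library go against a library of 1 animal, and the p-values below may therefore measure technical spread only. The part of these sex-linked differences in the results was not tested, and they cannot be told apart from genotype.

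Among the 10 genes, 1 was called, *Angptl4*, which was higher in *Bbs8*-/- RPE. Over all tested genes, 5.46% were called higher and 6.80% lower, 12.3% in either direction, so 1 of 10 lay near the background. The estimates of 6 genes were above 0 and those of 4 below, with a median log2 fold change of 0.24 against 0.02 over all tested genes. For 2 genes, *Vegfa* and *Angptl4*, every *Bbs8*-/- library lay above every *Bbs8*+/+ library. Over all tested genes the libraries did not overlap for 16.1%, of which 7.42% were higher and 8.64% lower in *Bbs8*-/-, as percentages of all genes tested. For 7 of the 10 genes the 95% interval of the difference lay within a 2-fold change in either direction.

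The genes spanned a wide range of levels in *Bbs8*+/+ RPE. *Epas1* and *Hif1a* were the most abundant of the 10, at percentiles 95.8 and 95.5 of all tested genes. *Vegfa* followed at percentile 91.7 and *Vegfb* at 87.5, then *Serpinf1* at 66.5. *Angptl4*, *Pgf* and *Kdr* lay near the middle, at percentiles 51.1, 50.9 and 47.3. Within *Bbs8*+/+ libraries the levels of these genes overlapped one another, and so did those of *Epas1* and *Hif1a*. *Flt1* stood at percentile 25.9 and *Egln3* at 3.87, at the edge of detection.

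**Figure D2:**
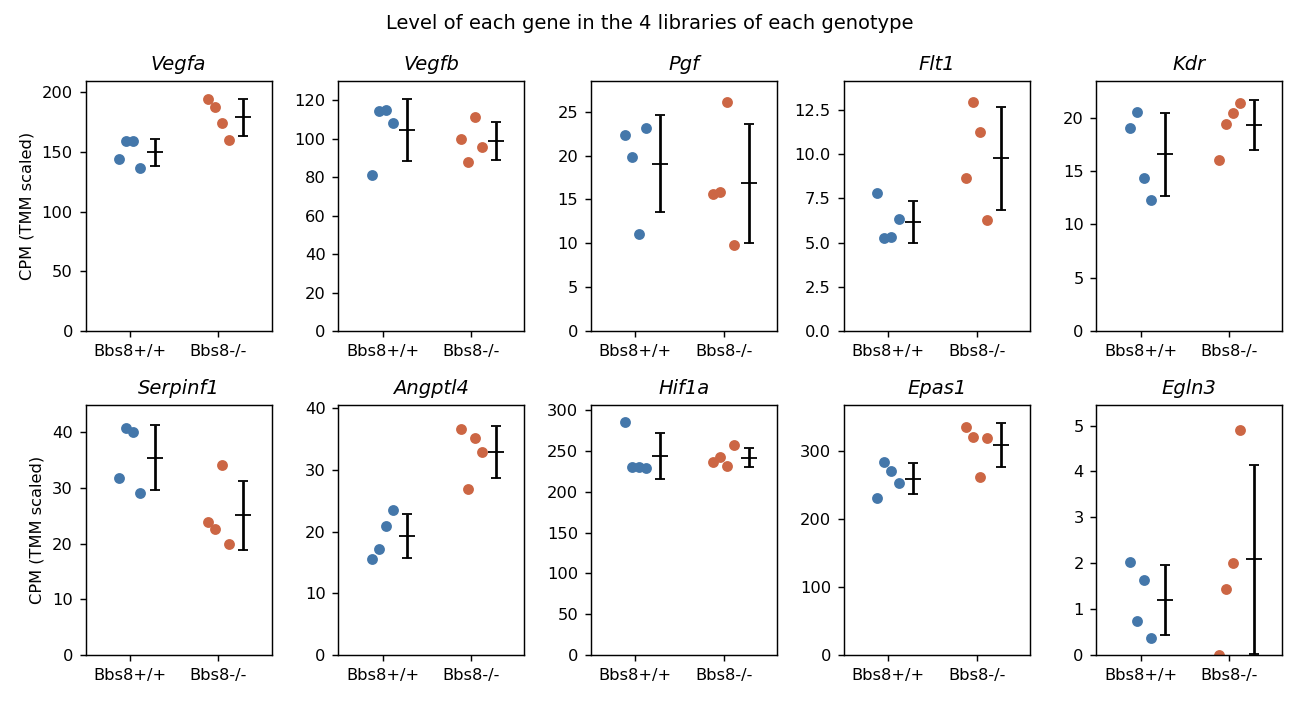
Level of each of the 10 genes in CPM (vertical axes starting at 0, a different range in each panel) in the 4 *Bbs8*+/+ libraries (blue) and the 4 *Bbs8*-/- libraries (orange), with the mean and SD of each genotype in black. *Vegfa* and *Angptl4* show no overlap between genotypes, and the lowest *Vegfa* value of *Bbs8*-/- lies just above the highest of *Bbs8*+/+.

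The ligands come first. *Vegfa* (ENSMUSG00000023951, minus strand of chr17:46016993-46032369 of mm10) encodes VEGF-A, the main ligand through which the RPE maintains the choroidal capillaries. Its level in *Bbs8*+/+ replicates 1 to 4 was 144, 159, 159 and 136 CPM, and in *Bbs8*-/- replicates 1 to 4 it was 195, 188, 174 and 160.0 CPM. All *Bbs8*-/- libraries lay above all *Bbs8*+/+ libraries, but by a narrow margin, with 160.0 CPM above 159.2 CPM. The means were 149.7 ± 11.3 and 179 ± 15.3 CPM, a log2 fold change of 0.26 (95% interval 0.04 to 0.47, SE 0.11). The unadjusted p was 0.0205 and the adjusted p was 0.120 by edgeR, so *Vegfa* was not called. The study, which also used edgeR, names *Vegfa* among the genes mis-regulated at both ages it sequenced, including the age described here. The result for *Vegfa* thus departs from that of the study, and the cause of the difference was not tested. With libraries scaled by their size alone the log2 fold change was 0.35 and *Vegfa* was called (adjusted p = 0.0245 by edgeR), the only one of 15 alternative settings in which it was.

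The start region of *Vegfa* is shown with those of *Serpinf1* and *Egln3*, so that the ligand, its opposing inhibitor and an oxygen sensor can be read side by side for the letters ACGTG and GCGTG, the core that HIF is known to bind. The sequences are RefSeq promoter windows of GRCm38.p6, read 5′ to 3′ on the minus strand on which all of these genes lie. Capitals mark a match on either strand, where CACGT and CACGC are the same letters read from the other strand, and a CACGTG counts on both.
Vegfa chr17:46032378-46032627: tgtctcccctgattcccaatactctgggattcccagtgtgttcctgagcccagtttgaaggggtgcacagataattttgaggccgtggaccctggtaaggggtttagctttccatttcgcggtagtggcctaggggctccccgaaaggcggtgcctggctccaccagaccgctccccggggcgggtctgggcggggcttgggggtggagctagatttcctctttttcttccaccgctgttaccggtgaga
Serpinf1 chr11:75422702-75422873: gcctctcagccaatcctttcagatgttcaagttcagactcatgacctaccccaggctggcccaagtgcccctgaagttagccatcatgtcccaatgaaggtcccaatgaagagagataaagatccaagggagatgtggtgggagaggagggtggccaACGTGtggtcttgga
Egln3 chr12:54203875-54204124: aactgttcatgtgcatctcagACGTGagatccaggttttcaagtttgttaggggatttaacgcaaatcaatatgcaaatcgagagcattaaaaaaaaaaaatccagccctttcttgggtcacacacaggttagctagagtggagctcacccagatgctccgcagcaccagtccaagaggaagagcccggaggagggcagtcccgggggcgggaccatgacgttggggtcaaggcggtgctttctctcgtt
The *Vegfa* window holds no match in its 250 bases, the *Serpinf1* window holds 1, which begins 93 bases before the RefSeq start, and the *Egln3* window holds 1 at 229 bases. The *Serpinf1* window is shown only in its first 172 bases, since the rest lies inside the gene as Ensembl annotates it, whose start is upstream of the RefSeq one. Promoter windows were found for 8 of the 10 genes, all but *Angptl4* and *Epas1*. Of their 10 windows of 250 bases, 8 held at least 1 match, and each of the 8 genes had 1 in at least one of its windows. For *Vegfa* the matches lay only in a further window, chr17:46025164-46025413, inside the gene as Ensembl annotates it. The matched windows of *Hif1a* and *Pgf* also lay inside their genes so annotated. Over all RefSeq promoters of the same length, 12679 of 32851 (38.6%) held one. These are letters in a window and no evidence of binding.

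*Vegfb* (ENSMUSG00000024962, chr19:6982473-6987651) encodes VEGF-B, a ligand of VEGFR1 linked to vessel survival and lipid handling. It was at 81.1, 114, 115 and 108 CPM in *Bbs8*+/+ replicates 1 to 4 and at 99.9, 87.9, 111 and 95.9 CPM in *Bbs8*-/- replicates 1 to 4. The genotypes overlapped, with *Bbs8*+/+ replicate 1 the lowest of all libraries. The log2 fold change was -0.08 (95% interval -0.35 to 0.19, adjusted p = 0.783 by edgeR), and scaling by library size turned its sign, to 0.01. *Pgf* (ENSMUSG00000004791, chr12:85166635-85177790) encodes placental growth factor, another VEGFR1 ligand. It was at 22.4, 19.8, 11.1 and 23.1 CPM in *Bbs8*+/+ and at 15.6, 15.8, 26.1 and 9.80 CPM in *Bbs8*-/- replicates 1 to 4. The widest values of both genotypes interleaved. Its log2 fold change was -0.19, with a 95% interval from -0.80 to 0.41 and an adjusted p of 0.775 by edgeR.

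Both receptors were low, and both are known mainly from endothelial cells. *Flt1* (ENSMUSG00000029648, chr5:147561604-147726011), which encodes the ligand trap and receptor VEGFR1, had 23, 14, 13 and 17 counts in *Bbs8*+/+ replicates 1 to 4 and 21, 36, 28 and 18 counts in *Bbs8*-/- replicates 1 to 4. The genotypes overlapped, and the high values were those of *Bbs8*-/- replicates 2 and 3. In CPM the means were 6.17 ± 1.19 and 9.77 ± 2.91. The log2 fold change of 0.65 had a 95% interval of -0.18 to 1.48 (adjusted p = 0.360 by edgeR), so *Flt1* was not called, and a rise of more than 2-fold lay within the interval. *Kdr* (ENSMUSG00000062960, chr5:75932827-75978458), which encodes the main signalling receptor VEGFR2, was at 19.0, 20.5, 14.3 and 12.3 CPM in *Bbs8*+/+ and at 16.0, 19.4, 20.4 and 21.4 CPM in *Bbs8*-/- replicates 1 to 4. Its libraries overlapped, and its log2 fold change was 0.22 (95% interval -0.33 to 0.77, adjusted p = 0.698 by edgeR).

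The 12 endothelial markers were measured beside the receptors. Their sum was 35.2 to 59.2 CPM in *Bbs8*+/+ and 35.3 to 45.2 CPM in *Bbs8*-/- libraries and overlapped (exact permutation p = 0.514, two-sided). Of the 8 endothelial markers tested, 0 were called by edgeR or DESeq2 and 0 had an unadjusted p below 0.05 by edgeR. Over all tested genes, edgeR called 12.3% in either direction, so 0 of 8 says little. The estimates of 5 markers were above 0 and those of 3 below, with a median log2 fold change of 0.15. The defining genes *Erg* and *Ecscr* had 0 counts in every library, which allows up to 3 counts each. *Pecam1* reached at most 3.50 CPM, and *Cd34*, which other cell types also express, was the most abundant marker, with means of 24.1 CPM in *Bbs8*+/+ and 17.1 CPM in *Bbs8*-/- libraries.

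*Serpinf1* (ENSMUSG00000000753, chr11:75409769-75422701) encodes PEDF, the vessel-restraining and neurotrophic factor of the RPE. It was at 31.9, 40.7, 40.1 and 29.0 CPM in *Bbs8*+/+ replicates 1 to 4 and at 23.9, 22.6, 34.1 and 19.95 CPM in *Bbs8*-/- replicates 1 to 4. Of the *Bbs8*-/- libraries 3 lay below every *Bbs8*+/+ library, and replicate 3 lay among them. The means were 35.4 ± 5.88 and 25.1 ± 6.18 CPM, a log2 fold change of -0.50 (SE 0.22, 95% interval -0.95 to -0.05). The unadjusted p of 0.0311 became 0.156 after adjustment by edgeR, and *Serpinf1* was called under none of 15 alternative settings.

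The ratio of *Vegfa* to *Serpinf1* counts within a library does not depend on how libraries are scaled. It was 4.53, 3.91, 3.96 and 4.69 in *Bbs8*+/+ replicates 1 to 4 and 8.16, 8.30, 5.11 and 8.02 in *Bbs8*-/- replicates 1 to 4. Every *Bbs8*-/- ratio was above every *Bbs8*+/+ ratio, and replicate 3 stood apart from the other *Bbs8*-/- libraries, toward *Bbs8*+/+. The means were 4.27 ± 0.398 and 7.40 ± 1.53, so the mean ratio was 1.73 times as high, and between 1.66 and 1.91 times with 1 library left out. The pair was chosen with the values of these genes known, and the ratio is given without a test.

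**Figure D3:**
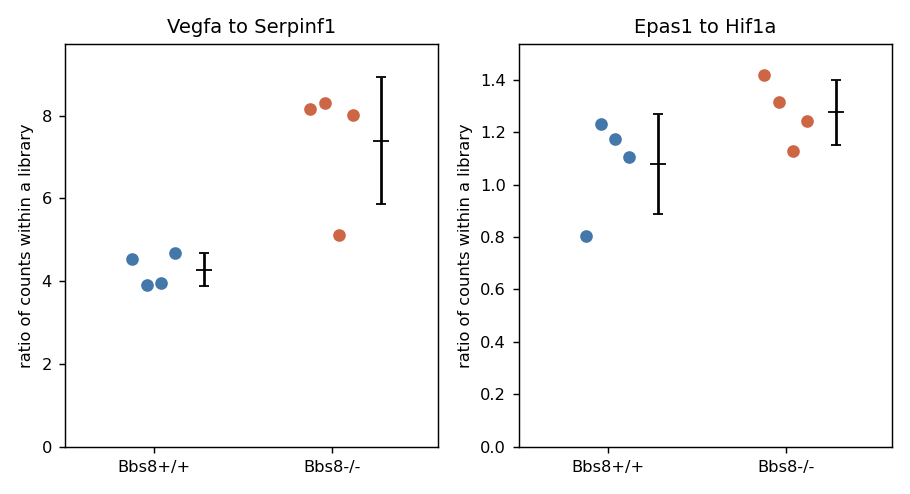
Ratio of counts within each library (vertical axes starting at 0) for *Vegfa* to *Serpinf1* (left) and *Epas1* to *Hif1a* (right), with *Bbs8*+/+ libraries in blue, *Bbs8*-/- libraries in orange and mean and SD in black. The *Vegfa* to *Serpinf1* ratio did not overlap between genotypes, with 1 *Bbs8*-/- library at 5.11, and the *Epas1* to *Hif1a* ratio did.

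*Angptl4* (ENSMUSG00000002289, minus strand of chr17:33773750-33781830) encodes a secreted inhibitor of lipoprotein lipase that also acts on vessel permeability and is induced by both HIF and PPAR. It had 46, 46, 51 and 63 counts in *Bbs8*+/+ replicates 1 to 4 and 89, 75, 88 and 94 counts in *Bbs8*-/- replicates 1 to 4. In CPM these were 15.6, 17.2, 20.9 and 23.5 against 36.6, 26.9, 35.3 and 32.9. All 4 *Bbs8*-/- libraries exceeded all 4 *Bbs8*+/+ libraries. The mean rose from 19.3 ± 3.56 to 32.9 ± 4.29 CPM, 1.71-fold (log2 fold change 0.77, SE 0.23, 95% interval 0.30 to 1.24, adjusted p = 0.0210 by edgeR). With 1 library left out at a time the log2 fold change stayed between 0.68 and 0.88, but the call was lost in 4 of 8 cases. The adjusted p by edgeR was then 0.0616 without *Bbs8*+/+ replicate 1, 0.0658 without *Bbs8*+/+ replicate 2, 0.0531 without *Bbs8*-/- replicate 1 and 0.0548 without *Bbs8*-/- replicate 3.

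The genes whose pattern over the 8 libraries was most like that of *Angptl4* were searched among the 8435 genes that averaged 10 CPM or more. Likeness was measured as the root mean square difference of centred log2 CPM. The closest were *Scd2* (0.0880), *Pld5* (0.108), *Adora2b* (0.115), *Sntb1* (0.119) and *Twf1* (0.119). *Scd2* encodes a fatty acid desaturase and *Adora2b* an adenosine receptor. *Scd2* was at 137 CPM in *Bbs8*+/+ and 244 CPM in *Bbs8*-/- libraries, with a log2 fold change of 0.83 against 0.77 for *Angptl4*. This is a description over 8 libraries in 2 genotypes, in which any gene with a similar fold change and small spread ranks high.

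The HIF subunits were the most abundant of the 10 genes. *Hif1a* (ENSMUSG00000021109, plus strand of chr12:73901375-73947530) encodes HIF-1 alpha, which drives glycolytic genes when oxygen falls. It was at 286, 230.2, 230.2 and 229 CPM in *Bbs8*+/+ and at 236, 243, 232 and 257 CPM in *Bbs8*-/- replicates 1 to 4. Apart from *Bbs8*+/+ replicate 1, the highest of all, the libraries lay close together. The log2 fold change was -0.01, with a 95% interval from -0.21 to 0.19 (adjusted p = 0.970 by edgeR). Its sign turned to 0.08 with library size scaling and to 0.08 without *Bbs8*+/+ replicate 1. *Epas1* (ENSMUSG00000024140, plus strand of chr17:86753700-86833410) encodes HIF-2 alpha. It was at 229.9, 283, 269.9 and 253 CPM in *Bbs8*+/+ and at 335, 319.8, 261 and 319 CPM in *Bbs8*-/- replicates 1 to 4. Of the *Bbs8*-/- libraries 3 exceeded every *Bbs8*+/+ library, and replicate 3 fell among the *Bbs8*+/+ values. The means were 259 ± 23.0 and 309 ± 32.6 CPM, a log2 fold change of 0.25 (SE 0.10, 95% interval 0.06 to 0.45, unadjusted p = 0.0122, adjusted p = 0.0818, both by edgeR). *Epas1* was not called, but it was called without *Bbs8*-/- replicate 3 (log2 fold change 0.33, adjusted p = 0.0295 by edgeR) and with library size scaling (0.34, adjusted p = 0.0138 by edgeR). The *Epas1* to *Hif1a* ratio averaged 1.08 ± 0.190 and 1.28 ± 0.123 and overlapped.

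*Egln3* (ENSMUSG00000035105, chr12:54178981-54203860) encodes the prolyl hydroxylase PHD3, itself a HIF target in many cells. It had 6, 2, 4 and 1 counts in *Bbs8*+/+ and 0, 4, 5 and 14 counts in *Bbs8*-/- replicates 1 to 4, and 3 libraries were at or under the floor of 3 counts. No difference was detectable at this depth (log2 fold change 0.79, 95% interval -1.23 to 2.81, adjusted p = 0.709 by edgeR). The estimate rested on *Bbs8*-/- replicate 4, without which it was -0.05. *Pgf*, *Hif1a* and *Egln3* lie on chromosome 12 with *Ttc8*, at distances of 13.7, 24.97 and 44.7 Mb, and none of these 3 was called.

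**Figure D4:**
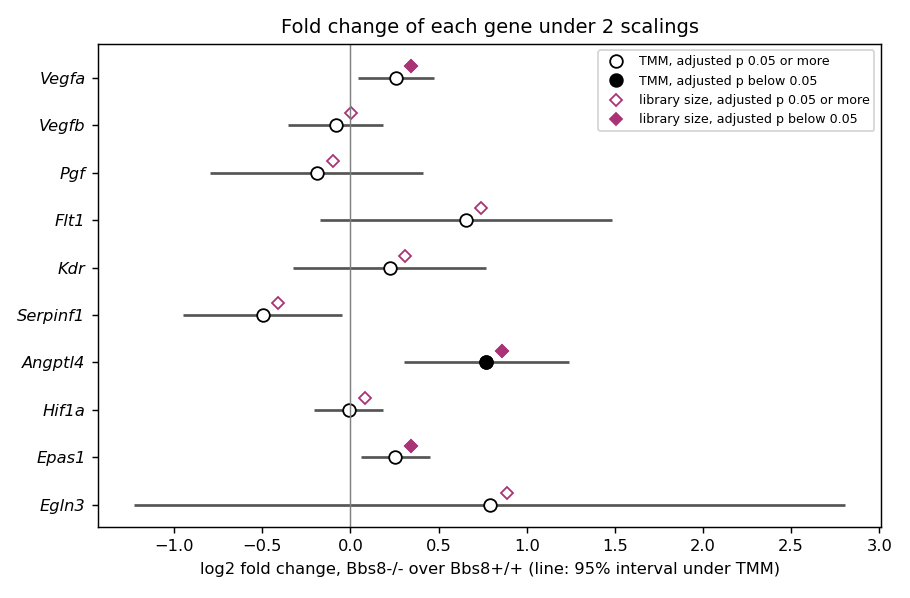
Log2 fold change of each gene, *Bbs8*-/- over *Bbs8*+/+, under TMM scaling (circles, with the 95% interval as a line) and under library size scaling (diamonds), filled where the adjusted p was below 0.05. *Angptl4* is filled under both scalings, *Vegfa* and *Epas1* only under library size, and the interval of *Egln3* runs from -1.23 to 2.81.

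The calls of 2 genes, *Vegfa* and *Epas1*, depended on how libraries were scaled. Library size scaling raised the median log2 fold change over all genes by 0.09, and 3 of the 10 genes were then called, all higher. Over all 12889 tested genes, 704 were called higher and 877 lower with TMM, 44.5% of calls higher. With library size, 1008 of the 12889 were called higher and 654 lower, 60.6% of calls higher.

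The rest of the pathway was read from lists of genes chosen by function. Of 5 other VEGF ligands, receptors and co-receptors, 4 were tested and 0 were called by edgeR or DESeq2. Over all tested genes, 12.3% were called by edgeR in either direction, so 0 of 4 says little. Of the 4, 1, *Vegfc*, had an unadjusted p below 0.05 by edgeR. *Vegfc*, a ligand of lymphatic vessels named after its values were seen, averaged 18.9 ± 5.05 CPM in *Bbs8*+/+ and 28.2 ± 3.61 CPM in *Bbs8*-/- libraries. Its log2 fold change was 0.58 (adjusted p = 0.132 by edgeR), without overlap. For the co-receptor *Nrp1* the value was -0.14 (adjusted p = 0.810 by edgeR).

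Of 11 other HIF subunits and oxygen sensing enzymes, 10 were tested, of which 1 rose and 1 fell, where 12.3% of all tested genes were called in either direction. *Hif1an*, which encodes the asparaginyl hydroxylase FIH that restrains HIF activity, fell from 58.6 ± 14.2 to 38.9 ± 9.14 CPM (log2 fold change -0.59, adjusted p = 0.0351 by edgeR), with overlapping libraries. It was no longer called with library size scaling (adjusted p = 0.0808) or without any one of *Bbs8*+/+ replicates 1 and 3 and *Bbs8*-/- replicates 2, 3 and 4 (adjusted p = 0.0659 to 0.160, all by edgeR). *Elob*, a subunit of the VHL ubiquitin ligase and of other ligases, rose by 0.41 (adjusted p = 0.00130 by edgeR). It overlaps *Srrm2* on the opposite strand, and whether the counting used strand is not stated in the sources used here. The remaining named genes were not called. The log2 fold change was 0.32 for *Arnt*, the common partner of the alpha subunits (adjusted p = 0.507), 0.55 for *Vhl* (adjusted p = 0.0899) and -0.29 for *Egln1*, the main oxygen sensor (adjusted p = 0.231), all by edgeR. *Vhl* was called with library size scaling (adjusted p = 0.0416) and without *Bbs8*-/- replicate 2 (0.0228), and *Egln1* without *Bbs8*+/+ replicate 1 (0.0355), all by edgeR.

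Of 40 transcripts widely used as HIF targets, 37 were tested, and 3 rose, 9 fell and 25 were not called. Over all tested genes 5.46% were called higher and 6.80% lower. The median log2 fold change of the list was -0.21, against 0.02 over all tested genes. With 1 library left out, 8 to 10 were called lower, and 1 was called higher in the 6 fits without *Bbs8*+/+ replicates 1, 2 or 4 or *Bbs8*-/- replicates 1, 3 or 4. *Hk2*, a hexokinase, fell from 559.6 ± 30.0 to 224 ± 16.6 CPM (log2 fold change -1.32, adjusted p = 6.59e-15 by edgeR). *Ldha*, lactate dehydrogenase A, fell by 0.91 on the log2 scale, *Aldoa*, an aldolase, by 0.74 and *Gpi1*, glucose phosphate isomerase, by 0.53. *Aldoa* overlaps *Fam57b* on the opposite strand, which had 746 to 2385 counts in a library, so its value is uncertain in the same way as that of *Elob*. *Slc16a3*, the lactate exporter MCT4, fell from 22.6 ± 1.65 to 2.13 ± 2.84 CPM. Its counts were 60, 65, 55 and 62 in *Bbs8*+/+ and 0, 4, 2 and 18 in *Bbs8*-/- replicates 1 to 4, so 2 libraries were at or under the floor. Its log2 fold change was -3.31, and -4.78 without *Bbs8*-/- replicate 4. The stress response gene *Ndrg1* fell by 0.64 on the log2 scale. *Hk1*, *Ak4* and *Fam162a*, named after their values were seen, also fell. The log2 fold changes were -0.32 for *Hk1* and -0.62 for *Fam162a*. *Ak4* had 23, 10, 10 and 22 counts in *Bbs8*+/+ and 0, 4, 0 and 2 counts in *Bbs8*-/- replicates 1 to 4. With 3 libraries at or under the floor, its estimate of -3.32 is imprecise, with a range of -4.33 to -2.95 when 1 library was left out, the lower end without *Bbs8*-/- replicate 2. *Fam162a* lost its call with library size scaling (adjusted p = 0.0848 by edgeR) and kept it in 2 of 8 fits with 1 library left out, those without *Bbs8*+/+ replicate 1 and *Bbs8*-/- replicate 1. The photoreceptor, lens and erythrocyte marker sums fell with these genes, by 1.29, 2.51 and 1.34 on the log2 scale. The part of these sums in the fall of the HIF targets was not tested.

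The 3 HIF target transcripts that rose were the glucose transporter gene *Slc2a1*, *Bhlhe40* and *Pgk1*. *Slc2a1* averaged 579.6 ± 65.9 CPM in *Bbs8*+/+ and 691 ± 71.9 CPM in *Bbs8*-/- libraries (log2 fold change 0.25, adjusted p = 0.0454 by edgeR). Its call held in 2 of 8 fits with 1 library left out, those without *Bbs8*+/+ replicate 3 and *Bbs8*-/- replicate 2. It was also lost under edgeR's likelihood ratio test (adjusted p = 0.108) and with the replicate numbers in the model (adjusted p = 0.0648). *Bhlhe40*, a transcriptional repressor with a role in the clock, rose by 0.62 (adjusted p = 0.00254 by edgeR). The estimate for *Pgk1*, a glycolytic kinase, was 1.29 on the log2 scale (adjusted p = 0.0488 by edgeR). The gene lies on the X chromosome, and the part of the sex-linked differences in its value was not tested. It also has near-identical copies, its unique counts were low at 5.96 ± 5.39 and 14.3 ± 2.53 CPM, and its value is uncertain. Its call held in 1 of 8 fits with 1 library left out, the one without *Bbs8*+/+ replicate 3, and it was not called by DESeq2 (adjusted p = 0.0551). *Bhlhe40* and *Pgk1* were named after their values were seen.

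Among 23 other regulators of vessel growth, 17 were tested, of which 5 rose and 0 fell by edgeR, where 5.46% of all tested genes were called higher and 6.80% lower. At an unadjusted p below 0.05, 6 were higher and 0 lower by edgeR, and DESeq2 called 4 higher and 0 lower. The median log2 fold change of the list was 0.29. *Thbs1*, which encodes the vessel inhibitor thrombospondin-1, was at 119, 155, 178 and 161 CPM in *Bbs8*+/+ and at 457, 369, 380.4 and 369.0 CPM in *Bbs8*-/- replicates 1 to 4. It rose 2.58-fold without overlap (log2 fold change 1.36, adjusted p = 1.22e-12 by edgeR). *Fgf2*, basic fibroblast growth factor, rose from 5.55 ± 2.59 to 51.5 ± 6.67 CPM (log2 fold change 3.21, adjusted p = 1.09e-11 by edgeR). Its antisense partners *Nudt6* and *Fgf2os* overlap it, with up to 15 and 42 counts in a library. *Angpt1*, a stabilizer of vessels, rose by 0.86 on the log2 scale (adjusted p = 0.00905). The matricellular genes *Ccn2* and *Ccn1* rose by 0.80 and 0.45 (adjusted p = 0.00372 and 0.0162), all by edgeR. The call was lost for *Angpt1* without *Bbs8*-/- replicate 2 (adjusted p = 0.0644) and for *Ccn1* without *Bbs8*-/- replicate 1 (0.106) or *Bbs8*+/+ replicate 4 (0.0925), all by edgeR. The list thus holds rises of both an inhibitor of vessel growth and of factors that promote it. The sum of glial markers rose with it, by 0.25 on the log2 scale, and their median log2 fold change was 0.67. The sum does not show the cell type of that rise, and its part in the rise of the vessel growth genes was not tested.

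**Figure D5:**
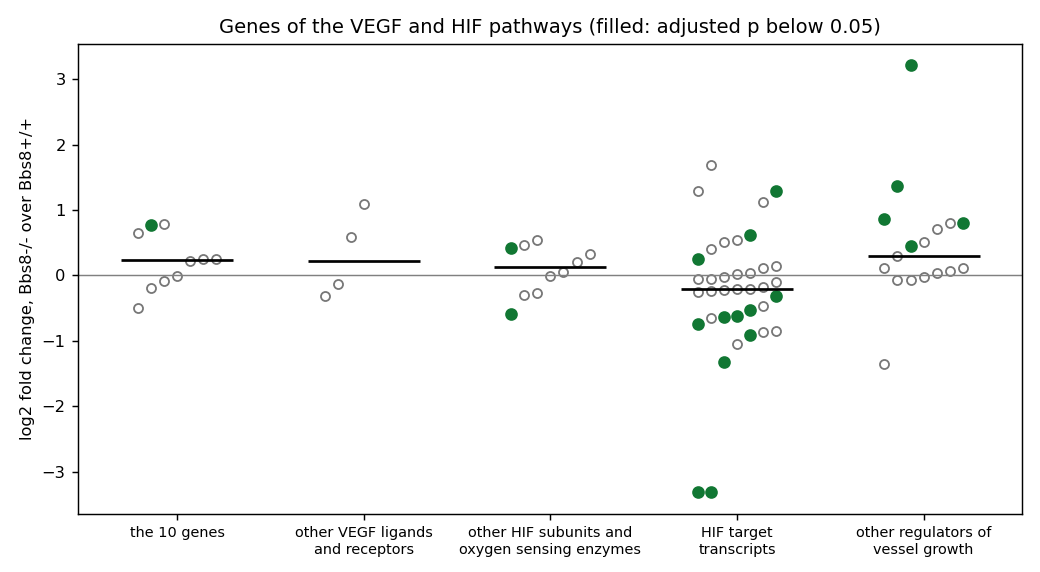
Log2 fold change, *Bbs8*-/- over *Bbs8*+/+, of each tested gene of the 10 genes and of 4 lists of related genes, filled where the adjusted p was below 0.05, with the median as a black line and the horizontal spread arbitrary. HIF targets hold 9 genes that fell and 3 that rose, and the other regulators of vessel growth hold 5 that rose.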

How the data were processed

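RNA of P29 RPE, 4 *Bbs8*+/+ and 4 *Bbs8*-/- libraries, was sequenced with the QuantSeq 3′ kit. The authors trimmed reads with BBDuk, aligned them to mm10 with STAR, and deposited raw counts per Ensembl gene from htseq-count, without normalization. Reads that did not map uniquely made up 32.8% to 34.5% of a library. Those outside genes made up 17.0% to 18.4% of a *Bbs8*+/+ and 19.8% to 20.6% of a *Bbs8*-/- library. Both kinds stayed out of library sizes and tests. Symbols and positions came from a GRCm38 annotation of a later Ensembl release, and 30934 of 31053 identifiers matched.

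Groups came from the labels alone. Genes that reached 1 CPM in 4 or more libraries were tested with edgeR 4.0.16 in R 4.3.3 (TMM factors, quasi-likelihood F test, Benjamini-Hochberg, threshold 0.05), tested first on simulated data. Sums of markers were compared with exact permutation tests, two-sided. Alternatives were DESeq2 1.42.0, library size scaling, 2 other filters, TMM factors from genes other than photoreceptor, lens and erythrocyte markers, a likelihood ratio test, a replicate block, and each library left out. Replicates did not agree within sampling noise in any pair of libraries, so none was counted as a copy of another. This comparison cannot tell libraries of separate animals from separate libraries of 1 RNA pool.

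The genes and lists were chosen with earlier results of these data known. Named were the 10 genes, *Ttc8*, up to 6 called genes per list, and *Arnt*, *Vhl*, *Egln1*, *Nrp1* and *Slc2a1*. Further named were the 5 genes closest to the gene with the smallest adjusted p. Genes outside this rule are marked in the text. Mural (1090 to 1449 against 1018 to 1245 CPM, exact permutation p = 0.143) and macrophage marker sums (340.3 to 443 against 311 to 354 CPM, p = 0.171) overlapped between genotypes. Antisense and near-identical genes are uncertain in these counts.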

Additional observations from a re-analysis of the deposited data

Results flagged for a closer look

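In 4 of 96 groups of 4 libraries examined, 1 library lay far from the other 3, with a gap to its nearest neighbour that, as a share of the range of the group, exceeded Dixon's 95% critical value (chance gives about 1 in 20 such groups). For *Hif1a*, *Bbs8*+/+ replicate 1 was at 286 CPM and the others at 229 to 230.2 CPM, a gap of 0.973 of the range. For *Thbs1*, *Bbs8*-/- replicate 1 was at 457 CPM against 369.0 to 380.4 CPM, a gap of 0.870 of the range. For the sum of RPE markers, *Bbs8*+/+ replicate 2 was at 39308 CPM against 40196 to 40341 CPM, a gap of 0.860 of the range. For the *Vegfa* to *Serpinf1* ratio, *Bbs8*-/- replicate 3 was at 5.11 against 8.02 to 8.30, a gap of 0.911 of the range.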

How the results depend on the processing

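With library size scaling 3 of the 10 genes were called in place of 1, and 2 estimates changed sign, *Vegfb* to 0.0052 and *Hif1a* to 0.080. The sign of *Hif1a* also changed, to 0.0014, when 1 CPM was required in all libraries. Leaving out 1 library at a time gave 0 to 1 called of the 10 genes, and 1 to 2 of the other HIF subunits and oxygen sensing enzymes. The log2 fold change then ranged from -0.48 to 0.00017 for *Pgf*, from -0.043 to 0.078 for *Hif1a* and from -0.053 to 1.19 for *Egln3*. Over all genes, 1242 to 1492 were then called. The cause of these changes was not tested. Replicate numbers were not stated to pair animals, and same-numbered libraries did not deviate together. With the numbers as a replicate block, 1 of the 10 genes was called and 1477 of all genes. The HIF targets called higher were 2 rather than 3 under DESeq2, the likelihood ratio test and the block. The other totals of called genes, over both directions, stayed within 1.5 times their value under the alternatives run. With a leave-one-out test of 3 libraries against 4, marker sums cannot reach the threshold. Genes near the floor, such as *Egln3*, could not be compared at this depth.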
